A study of Mus musculus with 8 samples.

Results

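The genes described here mark or drive the switch between epithelial and mesenchymal states: Cdh1, Epcam and Esrp1 on the epithelial side, Cdh2 and Vim on the mesenchymal side, and the transcription factors Snai1, Snai2, Zeb1, Zeb2 and Twist1. They were chosen by name and matched to Ensembl identifiers through the GENCODE annotation of the mouse genome, which gave 10 genes of the 37620 in the count files. Of these, 9 reached 10 counts in at least 2 libraries and were tested, and Zeb1 was not. RNA-seq counts came from 8 libraries of mouse embryonic stem cells (mESCs) and their derivatives. R1 mESCs, an established line, were kept in serum-containing medium without feeder cells. In 2i the medium held CHIR99021 against the kinase GSK3 and PD0325901 against the kinase MEK. A JAK inhibitor added to 2i gives 2iJ, and BMP4 with an ALK5 inhibitor added to 2iJ gives 2iJ+B-A. There was 1 library of 2i and 1 of 2iJ, both from day 5, and there were 3 libraries of 2iJ+B-A, from days 2, 5 and 11. A further library came from GFP-positive cells of the line CDX2-GFP, sorted after 2 days in 2iJ+B-A. The last 2 libraries were mesoderm progenitors made from R1 embryoid bodies, in a medium for which no serum is listed, with BMP4, Activin A and Wnt3a added on day 2. Those of day 3 were taken before, and those of day 4 a day after, IWP-2 was added, an inhibitor of Wnt secretion. The mesoderm days are therefore not time points of 1 treatment, and no labels say that libraries of a group came from separate cultures. The p-values measure the spread between these libraries, with the days of a group as its samples.

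The sorted library held 19810855 gene counts and the others 24532587 to 31453888. Of the read pairs of the sorted library 29.7% were unmapped, against 2.2% to 3.85% in the other 7. Of its uniquely mapped pairs 29.6% lay in no gene feature, against 11.3% to 16.4%, and it comes from another line. The sample codes in the labels start with different letters for the mesoderm progenitors, the sorted cells and the other mESCs, so a batch that followed them cannot be told apart from these groups. The mesoderm and pluripotency marker sums went with the labels. Over 6 markers of nascent mesoderm (Brachyury, Mesp1, Mixl1, Tbx6, Eomes and Lhx1) the sum was 1540 CPM (a gene's counts scaled to the same total of gene counts in every library) in the day 3 mesoderm library, 55.7 on day 4 and 3.78 to 21.2 elsewhere. Over 6 markers of later mesoderm, such as Kdr and Hand1, it was 275 CPM on day 3, 1657 on day 4 and 7.43 to 144 elsewhere. The 6 pluripotency markers summed to 900 CPM on day 3 and 83.9 on day 4, against 2846 to 4070 in the unsorted mESCs and 2010 in the sorted cells. All 6 were detected in every library. Pou5f1 alone held 701 CPM on day 3 and 957 CPM in the sorted cells, the latter within the range of the unsorted mESCs. Sox2 (110 CPM), Nanog, Esrrb and Zfp42 were lower in the sorted cells than in every unsorted mESC library. Klf4 (209 CPM) was higher. The 6 trophectoderm markers, Cdx2 among them, gave 3813 CPM in the sorted cells and 72.1 to 1196 in the other libraries. Most of the sorted sum was Krt8 (1731 CPM) and Krt18 (1595 CPM), keratins that are also counted below as epithelial structural genes. Cdx2, Gata3 and Tcfap2c were 104.5 to 234.5 CPM there, and Elf5 0.909 CPM. The sum was 587 CPM on day 3 of the mesoderm progenitors and 507 CPM on day 2 of 2iJ+B-A. Sums over 6 markers each were 204 to 1437 CPM for primitive endoderm, highest on day 11 of 2iJ+B-A, where Sparc alone held 1247 CPM. They were 42.9 to 90.7 CPM for neural crest and 6.07 to 161 for endothelium and blood. The highest of these last sums, in 2iJ, held 159 CPM of Pecam1, which the study counts among pluripotency-associated genes. Tal1 (42.6 CPM), Cdh5 (8.17) and Tie1 (2.16) were highest in day 4 mesoderm. Runx1 (32.2 CPM) was highest in the sorted cells and Gata1 (3.53) on day 5 of 2iJ+B-A. Fibroblast markers summed to 92.2 CPM in the sorted cells, with all 6 detected, and to 7.49 to 15.4 elsewhere, where Dcn was at 0 in 5 of the 7 libraries. In bulk RNA, fewer cells of a type and less RNA per cell cannot be told apart.

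Epithelial cells hold to each other through E-cadherin, the product of Cdh1, and in an epithelial-mesenchymal transition (EMT) this adhesion is given up, N-cadherin (Cdh2) and the filament protein vimentin (Vim) are made, and the cells become motile. Factors of the Snail (Snai1, Snai2) and Zeb (Zeb1, Zeb2) families bind E-box sequences in epithelial promoters and repress them, and Twist1, a basic helix-loop-helix factor, acts beside them. In the embryo the transition takes place at gastrulation, when epiblast cells pass through the primitive streak to form mesoderm, and Snai1 is needed for Cdh1 to be shut off there. Naive mESCs are epithelial and depend on E-cadherin for their compact colonies.

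The hexamer CAGGTG, on either strand (CACCTG as its reverse complement), is the E-box that Snail and Zeb factors recognise. It was looked for in RefSeq windows of 300 bases (GRCm38.p6), from 250 before to 50 after the start of transcription. A window was found for 5 of the 10 genes, Epcam, Vim, Snai1, Twist1 and Zeb2, the last with 4 windows. The windows of Epcam and Snai1 held the hexamer, and those of Vim, Twist1 and Zeb2 did not. Over all 32851 windows 20.2% held it at least once and 2.88% at least 2 times. The 250 bases before the start are shown for these 2 genes, an epithelial gene and one of the factors, with the hexamer in capitals.
Epcam, chr17:87635729-87635978, + strand: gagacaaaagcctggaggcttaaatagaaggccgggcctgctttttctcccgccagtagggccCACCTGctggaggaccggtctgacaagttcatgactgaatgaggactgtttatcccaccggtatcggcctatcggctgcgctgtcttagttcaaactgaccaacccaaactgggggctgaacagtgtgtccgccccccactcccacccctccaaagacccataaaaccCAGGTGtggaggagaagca
Snai1, chr2:167537945-167538194, + strand: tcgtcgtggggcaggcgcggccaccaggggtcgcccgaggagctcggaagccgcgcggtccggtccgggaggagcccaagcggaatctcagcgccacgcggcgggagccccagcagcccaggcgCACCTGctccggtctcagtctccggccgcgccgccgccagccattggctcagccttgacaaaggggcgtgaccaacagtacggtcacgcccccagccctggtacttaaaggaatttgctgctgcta
Upstream of Epcam the hexamer began 187 bases before the start, as CACCTG, and again 19 bases before it, as CAGGTG. In the Snai1 window it began 126 bases before the start, as CACCTG. These matches describe letters only, and no binding was measured.

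Cdh1 (chr8:109127251-109194146, + strand, NCBIM37) codes for E-cadherin, the adhesion protein of epithelia. In the mesoderm progenitors it stood at 503 CPM on day 3 and 28.3 CPM on day 4, which is 17.7-fold lower (1 library a day, no test). In 2i it stood at 525 CPM, in 2iJ at 551 CPM, and in 2iJ+B-A at 616, 844 and 723 CPM on days 2, 5 and 11. The sorted cells had 963 CPM, the highest value. The day 3 mesoderm library was thus close to 2i and 2iJ, while the day 4 library stood far from the other 7.

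Epcam (chr17:88035319-88050446, + strand) codes for a surface adhesion protein of epithelia and mESCs. Its level was 84.1 CPM on day 3 of the mesoderm progenitors and 15.3 CPM on day 4, a 5.50-fold lower value. It was 50.5 CPM in 2i, 79.9 CPM in 2iJ, and 128, 111 and 112 CPM on days 2, 5 and 11 of 2iJ+B-A, a mean of 117 ± 9.39 (SD, n = 3). The sorted cells had 409 CPM, above every other library. Epcam had the narrowest spread of the tested genes over the days of 2iJ+B-A, where its highest value was 1.15 times its lowest.

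Esrp1 (chr4:11259080-11313930, - strand) codes for a splicing factor that keeps epithelial exons in transcripts. It did not keep the order of Cdh1 and Epcam. Its highest value, 63.2 CPM, was in the day 3 mesoderm library, with 55.2 CPM in the sorted cells. On day 4 it was 3.91 CPM, 15.9-fold lower than on day 3. The lowest value was in 2i, at 2.66 CPM, with 8.37 CPM in 2iJ and 16.5, 10.6 and 19.0 CPM on days 2, 5 and 11 of 2iJ+B-A. Day 4 mesoderm and 2i were thus both low for Esrp1, whereas they lay far apart for Cdh1. A lincRNA, Gm16652, is annotated on the opposite strand over part of the gene.

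Cdh2 (chr18:16747386-16967755, - strand) was high in both mesoderm libraries and low everywhere else. It stood at 175 CPM on day 3 and 127 CPM on day 4, against 5.58 CPM in 2i, 6.62 CPM in 2iJ and 3.79, 8.20 and 9.38 CPM on days 2, 5 and 11 of 2iJ+B-A. The sorted cells had the lowest value, 1.72 CPM from 34 counts. Between the mesoderm days it differed by 1.37-fold. A processed transcript, Gm15485, lies opposite to it.

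Vim (chr2:13495554-13504453, + strand) codes for the intermediate filament of mesenchymal cells and had counts in every library. It stood at 253 CPM on day 3 of the mesoderm progenitors and 606 CPM on day 4. In 2i it was 101 CPM, in 2iJ 70.1 CPM, in 2iJ+B-A 26.8, 58.9 and 67.7 CPM on days 2, 5 and 11, and in the sorted cells 54.9 CPM. The lowest library was day 2 of 2iJ+B-A, and all libraries of 2iJ+B-A and the sorted one lay under 2i and 2iJ. The counting intervals of 2iJ and day 11 of 2iJ+B-A overlapped.

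The transcription factors fell into different patterns over the mesoderm days. Snai1 (chr2:167363695-167368314, + strand), the factor first linked to repression of Cdh1, was 105 CPM on day 3 and 21.2 CPM on day 4, or 4.97-fold lower on day 4. Its close relative Snai2 (chr16:14705945-14709488, + strand) went the other way, from 0.795 CPM on day 3 (25 counts) to 31.6 CPM on day 4 (977 counts), 36.5-fold higher. The day 4 library, lowest of the 8 for Cdh1 and Epcam, was thus the highest for Snai2. Elsewhere Snai2 was at 0.959 CPM in 2i, 1.09 CPM in 2iJ, 2.36, 2.35 and 1.59 CPM on days 2, 5 and 11 of 2iJ+B-A and 3.28 CPM in the sorted cells. Snai1 stood at 1.85 CPM in 2i, 2.49 CPM in 2iJ, 3.18, 8.04 and 8.37 CPM in 2iJ+B-A and 9.04 CPM in the sorted cells. In these 6 libraries both Snail genes were low, and the highest value of each was in the sorted cells. For Snai1 the counting interval of the sorted cells overlapped those of days 5 and 11 of 2iJ+B-A, and for Snai2 those of days 2 and 5.

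Zeb2 (chr2:44839154-44972915, - strand), a zinc finger and homeodomain repressor, was 32.7 CPM on day 3 and 65.1 CPM on day 4 of the mesoderm progenitors. In the other libraries it was between 1.10 CPM, on day 2 of 2iJ+B-A, and 4.92 CPM, on day 11. Twist1 (chr12:34642536-34644682, + strand) was nearly level over the mesoderm days, at 23.8 and 19.6 CPM. It was 0.489, 1.34 and 1.24 CPM on days 2, 5 and 11 of 2iJ+B-A, the first from 12 counts, and 0.817 CPM in both 2i and 2iJ. The sorted cells had 3.58 CPM (71 counts), above the 5 unsorted mESC libraries. Zeb2 overlaps the lincRNA Gm13476 on the opposite strand.

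Zeb1 (chr18:5591858-5775465, + strand), the relative of Zeb2 most often studied in EMT, had 0 counts in every library, on both strands. A count of 0 allows up to 0.0954 to 0.151 CPM of counted pairs, depending on the library. How its feature was counted is not given in the sources used here, so a level of Zeb1 cannot be read from these files, and it is left out of all comparisons.

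**Figure D1:**
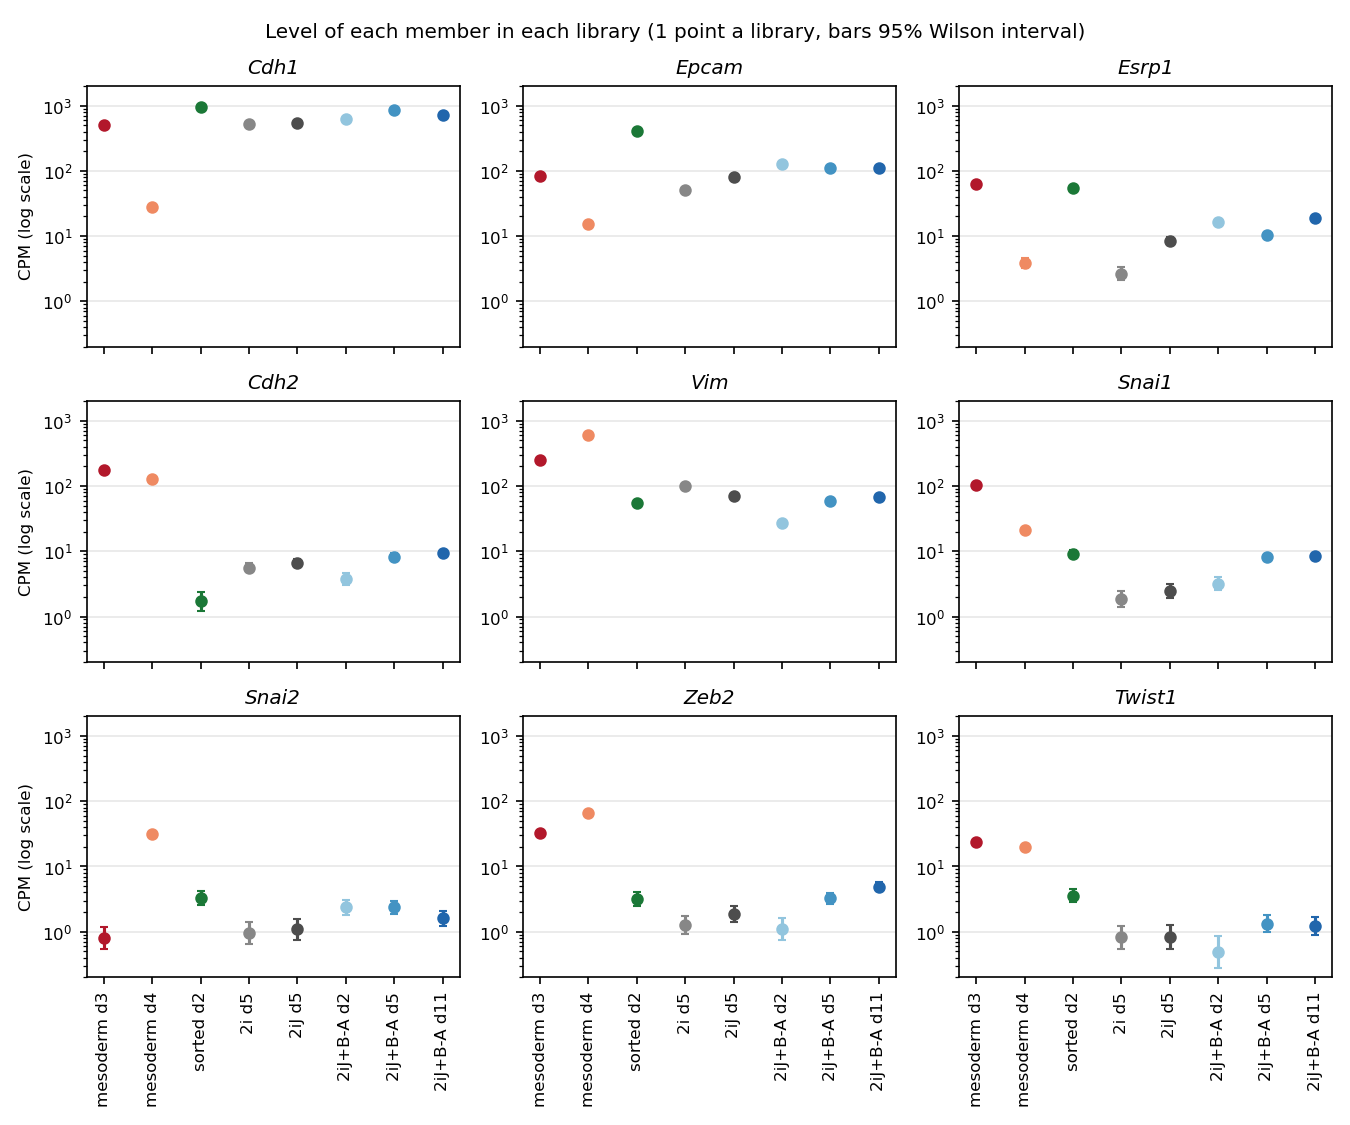
Level of the 9 tested genes in each library, in CPM on a log axis shared by all panels. Each point is 1 library and its bar the 95% Wilson interval of counting error. The mesoderm points sit above the others for Cdh2, Vim, Snai1, Zeb2 and Twist1, and the day 4 point drops below the rest for Cdh1 and Epcam.

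Counts per kilobase of exon allow the genes to be set against each other within a library. In day 3 mesoderm the order of levels was Cdh1 at 109.9, Vim at 108.4, Snai1 at 65.1, Epcam at 41.2, Cdh2 at 21.7, Twist1 at 14.7, Esrp1 at 10.0, Zeb2 at 2.13 and Snai2 at 0.391 CPM per kb. In day 4 mesoderm Vim led at 259 CPM per kb. Cdh2 at 15.8, Snai2 at 15.5, Snai1 at 13.1 and Twist1 at 12.1 CPM per kb came next and lay close together, then Epcam at 7.47, Cdh1 at 6.18, Zeb2 at 4.24 and Esrp1 at 0.620. In 2iJ+B-A on day 5 Cdh1 led at 185 CPM per kb, before Epcam at 54.6 and Vim at 25.2, with the other genes at 0.211 to 4.96. On day 3, then, Cdh1 and Snai1 stood side by side among the 3 highest levels of this set in bulk RNA.

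The cadherin ratio needs no scaling between libraries. Per kb of exon, Cdh1 exceeded Cdh2 in 7 of 8 libraries. The ratio was 166 in 2i (95% exact interval 142 to 195), 147 in 2iJ (126 to 172), and 286, 181 and 136 in 2iJ+B-A on days 2, 5 and 11. It was 990 in the sorted cells (708 to 1429). In mesoderm progenitors it was 5.07 on day 3 (4.91 to 5.22) and 0.391 on day 4 (0.363 to 0.421), so that Cdh2 exceeded Cdh1 2.56-fold in the latter only. The intervals of 2i and 2iJ overlap, as do those of 2i and day 5 of 2iJ+B-A, and all cover counting error only. Without scaling for length each ratio was lower and the same 7 libraries had more Cdh1.

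**Figure D2:**
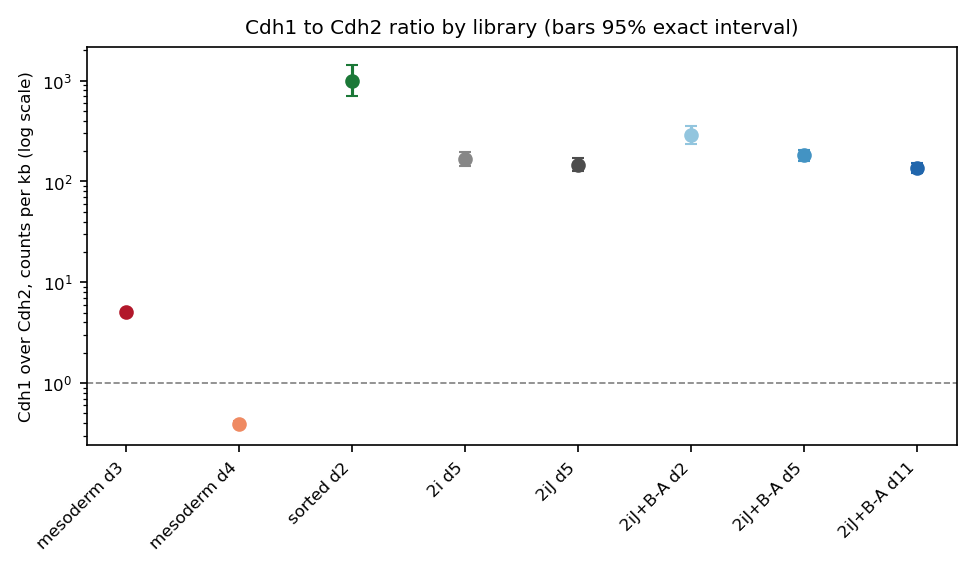
Ratio of Cdh1 to Cdh2 counts per kb of exon in each library, on a log axis. Points are single libraries, bars are 95% exact intervals on the counts, and the dashed line marks equal levels. The day 4 mesoderm library, at 0.391, is the 1 point under the line, and the sorted cells at 990 are the highest.

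The comparison of mesoderm progenitors with 2iJ+B-A sets cells on the way to mesoderm beside mESCs under signals that the study chose for an exit from pluripotency. Of the 9 tested genes 5 rose in the mesoderm progenitors and none fell. Over all 16961 genes 27% passed the same test, 11.5% higher and 15.5% lower. The genes that rose were the mesenchymal pair and 3 of the 4 tested factors. The edgeR quasi-likelihood fit gave Cdh2 a log2 fold change of 4.42 (SE 0.40, adjusted p = 0.00203). Twist1 rose by 4.41 (SE 0.50, adjusted p = 0.00336) and Zeb2 by 4.00 (SE 0.64, adjusted p = 0.00836) in the same edgeR fit. For Snai1 the log2 fold change was 3.28 (SE 0.71, edgeR adjusted p = 0.0202) and for Vim 3.09 (SE 0.49, edgeR adjusted p = 0.00828). All 5 were higher in both mesoderm libraries than in the 3 of 2iJ+B-A, as were 26.2% of all genes tested, and higher than in all 6 other libraries, as were 19.3%. Snai1 did not keep its call without the day 3 mesoderm library (edgeR adjusted p = 0.0569), without day 2 of 2iJ+B-A (0.0614) or without day 5 (0.0641).

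The other 4 genes did not pass, and for all of them the mesoderm days lay far apart. With both days as 1 group the log2 fold changes were -1.45 for Cdh1 (SE 0.99, edgeR adjusted p = 0.315), -1.24 for Epcam (SE 0.63, 0.191), 1.12 for Esrp1 (SE 0.94, 0.412) and 2.97 for Snai2 (SE 1.20, 0.116). Cdh1 and Epcam were lower in both mesoderm libraries than in every library of 2iJ+B-A, as were 31% of all genes.

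With each day as a group of its own, only the 3 libraries of 2iJ+B-A gave a spread, since every other group was a single library. A lone mesoderm library was thus taken to vary like days of mESC culture. In this fit the picture split. On day 3, 6 of the 9 genes passed, where 19.3% of all genes did. Cdh2, Snai1, Twist1, Zeb2 and Vim rose by 4.62, 4.01, 4.53, 3.40 and 2.31 on the log2 scale (edgeR adjusted p between 0.00329 and 0.0197). Esrp1, the epithelial splicing factor, also rose on day 3, by 2.04 (SE 0.36, edgeR adjusted p = 0.0162). Cdh1 had a log2 fold change of -0.53 (SE 0.22, edgeR adjusted p = 0.142), Epcam of -0.48 (SE 0.19, 0.136) and Snai2 of -1.40 (SE 0.51, 0.108).

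On day 4 all 9 passed, where 27% of all genes did. Cdh1 fell by 4.66 on the log2 scale (SE 0.29, edgeR adjusted p = 0.00146). Epcam fell by 2.92 (SE 0.23, edgeR adjusted p = 0.00182) and Esrp1 fell by 1.95 (SE 0.45, 0.0264). Snai2 rose by 3.93 (SE 0.40, edgeR adjusted p = 0.00307), Zeb2 by 4.42, Twist1 by 4.27, Cdh2 by 4.18 and Vim by 3.60. Snai1 was barely past the threshold on day 4, at 1.72 (SE 0.50, edgeR adjusted p = 0.0498). Mesenchymal genes and the factors other than Snai2 thus stood high on both days, while of the mesoderm days only day 4 had the 3 epithelial genes past the threshold in the lower direction. Whether the days differ in this was not tested, since each is 1 library.

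**Figure D3:**
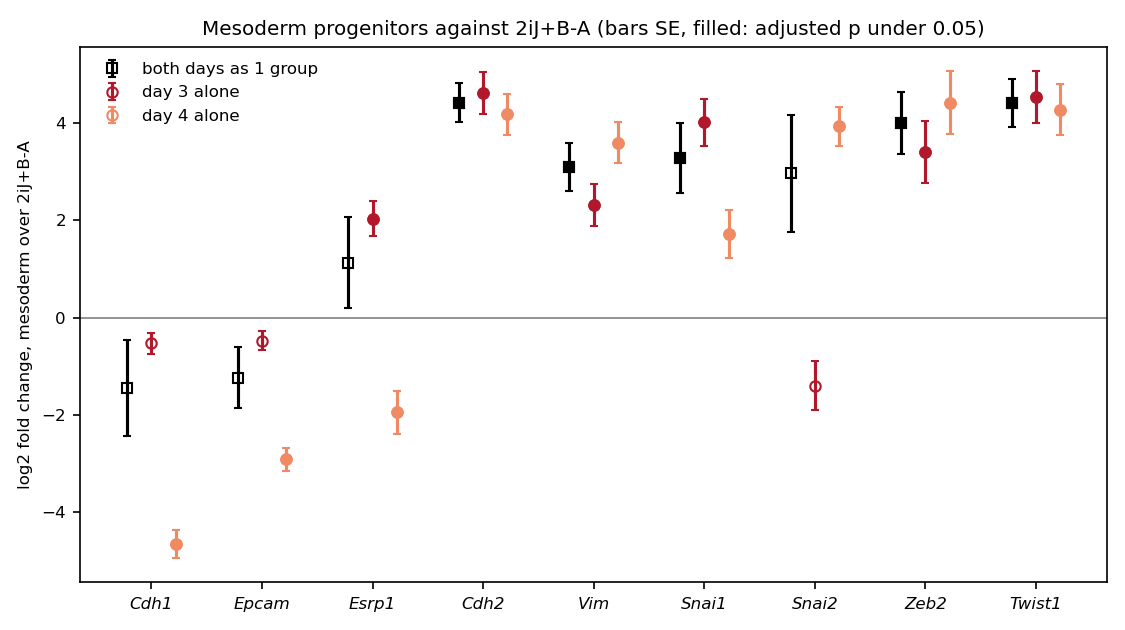
Log2 fold change of each gene in mesoderm progenitors over 2iJ+B-A, with both days as 1 group (black squares), day 3 alone (red) and day 4 alone (orange). Bars are standard errors and filled symbols passed an adjusted p of 0.05. Day 3 and day 4 lie close together for Cdh2 and Twist1 and on opposite sides of 0 for Esrp1 and Snai2.

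The step from day 3 to day 4 itself rests on 1 library each and has no test. Cdh1, Esrp1, Epcam and Snai1 were 2-fold or more lower on day 4, and Snai2 and Vim (2.39-fold) 2-fold or more higher. Zeb2 was just inside that limit at 1.99-fold higher, and Twist1 and Cdh2 differed by 1.22-fold and 1.37-fold. Among all genes 9.03% were 2-fold or more higher on day 4 and 11.8% lower, 20.9% in all. Pluripotency markers, nascent and later mesoderm markers and the IWP-2 treatment all differed between the same libraries, and their part in these differences was not tested.

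Lists of genes around the switch place these values in context. Grainyhead, Ovol, Elf and Klf factors and Esrp2 keep cells epithelial, and of these 9 epithelial regulators 5 fell in mesoderm progenitors against 2iJ+B-A and none rose, with a median log2 fold change of -2.66 where the median of all genes was -0.03. Elf3, an ETS factor of epithelia, fell by 4.09 (SE 0.54, edgeR adjusted p = 0.00513). Esrp2, the paralog of Esrp1, fell by 3.65 (SE 0.71, edgeR adjusted p = 0.0148), from 20.8 and 42.7 CPM on days 2 and 5 of 2iJ+B-A to 3.69 and 0.808 CPM on days 3 and 4. Esrp2 was thus low on day 3, when Esrp1 was at its highest level. Klf4, a factor of both pluripotency and epithelia, fell by 3.50 (SE 0.35, edgeR adjusted p = 0.00243). It is also among the pluripotency markers used above to describe the libraries.

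Of 29 genes for junctions, keratins and polarity, 4 fell and 2 rose (median -0.70). Cldn4, a tight junction claudin, fell by 2.92 (edgeR adjusted p = 0.0464), the polarity gene Llgl2 fell by 1.93 (0.00947) and the desmoglein Dsg2 fell by 0.70 (0.0219). The desmosomal plakin Dsp went against its list and rose by 3.28 (SE 0.37, edgeR adjusted p = 0.00328), with 346 and 213 CPM on mesoderm days 3 and 4. Lsr, a protein of tricellular junctions, rose by 1.04 (edgeR adjusted p = 0.0181). Among 8 splicing regulators 3 fell and none rose (median -0.73), and Rbm47 fell by 2.75 and Mbnl2 fell by 1.40 beside Esrp2.

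On the mesenchymal side, 10 of 25 structural genes rose and 2 fell (median 0.98). Fbn1, a fibrillin of matrix fibres, rose by 4.22 (edgeR adjusted p = 0.0185), and the matrix proteases Mmp2 by 3.78 (0.00564) and Mmp14 by 2.96 (0.00236). The receptor Pdgfra, also among the later mesoderm markers used above, rose by 3.00 (edgeR adjusted p = 0.0338). Acta2, smooth muscle actin, fell by 4.26 (edgeR adjusted p = 0.032), and had reached 199.7 CPM on day 5 of 2iJ+B-A against 8.84 and 1.52 CPM on the mesoderm days. The integrin Itgb3 fell by 3.71 (edgeR adjusted p = 0.00234).

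Of 13 other EMT factors 7 rose and 1 fell (median 2.89). Foxc1 rose by 4.71, Lef1 by 3.25, Sox9 by 3.23 and Sox4 by 2.30 (edgeR adjusted p between 0.00234 and 0.0174). Of 12 regulators of the gastrulation EMT, a list that holds the nascent mesoderm markers used above to describe the libraries, 10 rose and none fell (median 5.87). They were led by Mesp1 (log2 fold change 9.37, SE 1.65), Brachyury (T, 9.34, SE 1.80), Lhx1 (7.84) and Mixl1 (7.58), with edgeR adjusted p between 0.0058 and 0.0219. Most of this level was on day 3. Mesp1 was 181 CPM on day 3 and 6.36 CPM on day 4, Lhx1 180.9 and 17.4 CPM, and Mixl1 205 and 2.10 CPM. Their folds without day 3 are not given here. Brachyury, the streak factor, was 547 CPM on day 3 and 6.30 CPM on day 4, a course that Snai1 shared in direction and Snai2 did not.

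Cadherins and catenins gave 2 higher and none lower of 9 (median 0.34), led by Cdh11, a cadherin of mesenchyme, at 5.25 (SE 0.54, edgeR adjusted p = 0.00269). Of 11 genes for TGF-beta ligands, receptors and SMADs 2 rose (median 0.62), Tgfb1 by 3.37 (edgeR adjusted p = 0.00391) and Smad4 by 0.86 (0.0105). Among 8 partners of Snail and Zeb factors, corepressors and enzymes that turn Snail over, Ctbp1 rose by 0.92 (edgeR adjusted p = 0.00777) and Gsk3b, a kinase that marks Snail for breakdown, by 0.59 (0.04). The lists differ in size and these shares are descriptions, to be read beside the 27% of all genes that passed.

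**Figure D4:**
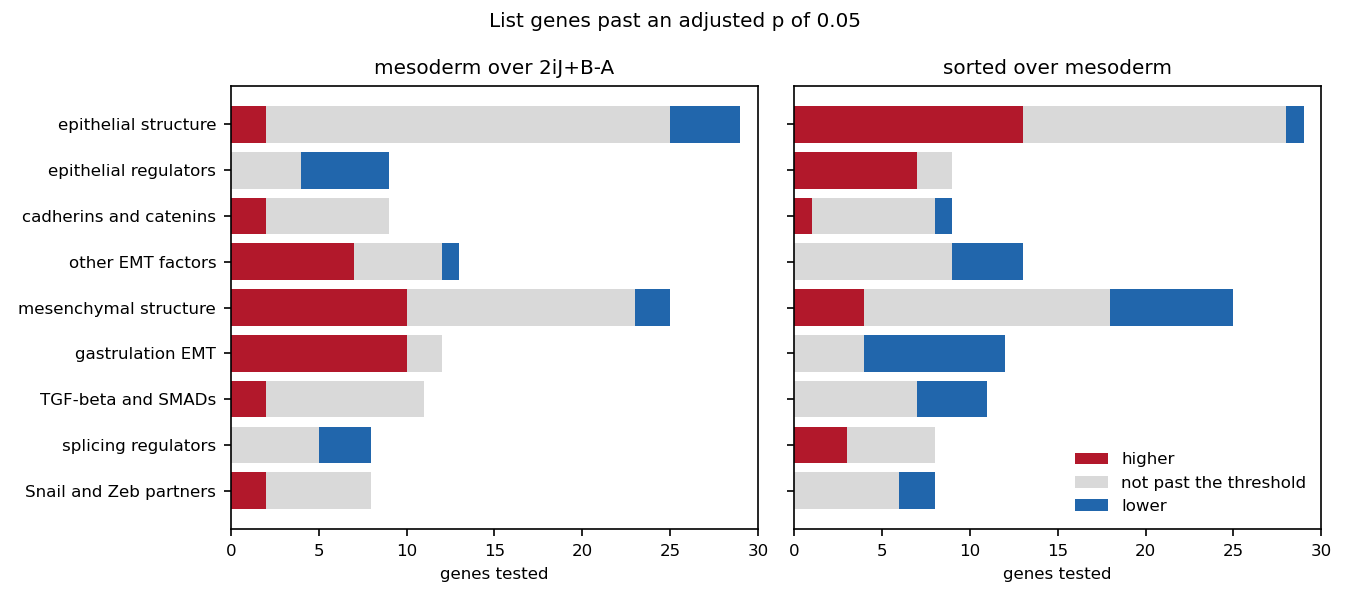
Number of tested genes in each of 9 lists that were higher (red), lower (blue) or not past an adjusted p of 0.05 (grey), for mesoderm progenitors over 2iJ+B-A (left) and sorted cells over mesoderm progenitors (right). The gastrulation list is mostly red on the left, with 10 of 12 genes higher, and mostly blue on the right, with 8 of 12 lower.

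Sorted CDX2-GFP-positive cells had the highest Cdh1, Epcam and cadherin ratio of all libraries. Against the mesoderm progenitors 5 of the 9 genes passed, where 27.6% of all genes did, 15.6% higher and 12% lower in the sorted cells. Cdh2 fell by 6.42 (SE 0.73, edgeR adjusted p = 0.00336), Zeb2 fell by 3.91 (SE 1.02, 0.0339), Vim fell by 2.94 (SE 0.76, 0.0334) and Twist1 fell by 2.56 (SE 0.71, 0.0418) on the log2 scale. Epcam rose by 3.09 (SE 0.79, edgeR adjusted p = 0.032). Cdh1 had a log2 fold change of 1.91 (SE 1.21, edgeR adjusted p = 0.274), Esrp1 of 0.77 (SE 1.24, 0.67), Snai1 of -2.76 (SE 1.08, 0.103) and Snai2 of -2.27 (SE 1.79, 0.371). Calls other than that of Cdh2 depended on the library set: without day 5 of 2iJ+B-A only Cdh2 passed, and the adjusted p of the other 4 was between 0.0622 and 0.076.

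Epithelial lists went with Epcam in that comparison. Of the 29 structural genes 13 rose in the sorted cells and 1 fell (median 2.33, all genes -0.02), with Cldn4 higher by 5.69, Tjp3 by 5.18, Cldn3 by 4.84 and the keratin Krt18 by 3.92, and Dsp at -1.93 (edgeR adjusted p between 0.00722 and 0.0401). Of 9 epithelial regulators 7 rose (median 3.82), among them Elf3 by 5.62, Esrp2 by 5.43, Klf4 by 4.28 and Ovol2 by 3.82. Klf4 is also a pluripotency marker. Splicing regulators gave 3 higher and none lower of 8 (median 1.03), led by Esrp2, Rbm47 by 4.08 and Mbnl2 by 3.07.

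Of 12 gastrulation regulators, which include the nascent mesoderm markers, 8 fell in the sorted cells (median -6.51), led by Mesp1, Lhx1, Fgf8 and Crb2. Of 13 other EMT factors 4 fell, namely Lef1, Hmga2, Sox4 and Tcf4. Of 25 mesenchymal genes 7 fell and 4 rose (median -1.72). The log2 fold changes were -5.40 for Pdgfra, also a later mesoderm marker, -4.21 for Ncam1, -3.55 for Mmp2 and -2.83 for Mmp14. Among those that rose were the collagens Col3a1 by 4.53 (edgeR adjusted p = 0.00845) and Col1a1 by 3.64 (0.0351) and the matrix protein Thbs1 by 3.73 (0.0303). Col1a1 is also 1 of the 6 fibroblast markers that summed to 92.2 CPM in the sorted library, and their part in this result was not tested. TGF-beta genes gave 4 lower of 11 (Tgfb1, Tgfbr1, Smad2 and Smad4), Snail and Zeb partners 2 lower of 8 (Fbxl14 and Ctbp1), and cadherins and catenins 1 lower (Cdh11) and 1 higher (Ctnna1) of 9.

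Against unsorted 2iJ+B-A, none of the 9 genes passed for the sorted cells, where 5.42% of all genes did (919 genes, edgeR), 3.34% higher and 2.08% lower. An unadjusted p under 0.05 was seen for 3 of them and for 27% of all genes. They were Cdh2 with a log2 fold change of -1.999 (SE 0.58, edgeR adjusted p = 0.0936), Twist1 with 1.86 (SE 0.57, 0.102) and Epcam with 1.85 (SE 0.70, 0.157). Esrp1 had 1.89 (SE 1.11, edgeR adjusted p = 0.318), Cdh1 0.46 (SE 1.16, 0.831), Snai1 0.52, Snai2 0.69, Vim 0.16 and Zeb2 0.09. These set a day 2 library against the mean of days 2, 5 and 11. At day 2 of a slope on day, where none of the 9 passed either, the log2 fold changes were 1.42 for Zeb2, 1.33 for Snai1, 0.93 for Vim, 2.61 for Twist1 and -1.25 for Cdh2. The spread in this fit comes in part from the mesoderm days. Without either mesoderm library only 2iJ+B-A gave the spread, and the log2 fold changes stayed at 1.85 for Epcam and 1.89 for Esrp1. Whether these genes pass thus depends on the libraries that give the spread. DESeq2's Wald test called Cdh2 (adjusted p = 0.00599) and Twist1 (0.0326), among 2697 genes in all.

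Sorted cells lay above all 3 libraries of 2iJ+B-A for Cdh1, Epcam, Esrp1, Snai1, Snai2 and Twist1, as did 33.5% of all genes, and below them for Cdh2, as did 41.7%. The direction of Twist1 thus differed from that of Cdh2, a gene with which it was high in mesoderm progenitors. Fibroblast markers summed to 92.2 CPM in the sorted library and to 7.49 to 15.4 elsewhere. Their part in the values of Twist1, Snai1 and Snai2 was not tested. Of the 29 epithelial structural genes 27 had a positive log2 fold change (median 1.62, all genes -0.08), and 2 passed, Krt18 by 2.59 (SE 0.54, edgeR adjusted p = 0.0484) and Dsg2 by 1.16 (SE 0.18, 0.0288). No epithelial regulator passed (0 of 9, median 1.53). Mesenchymal genes gave 2 higher of 25, Col1a1 and Col3a1, and 1 gene passed in each of 5 other lists, among them the catenin Ctnna1, Mbnl2 and Gsk3b higher and Smad2 lower. None of 12 gastrulation regulators did.

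Addition of BMP4 and the ALK5 inhibitor to 2iJ moved none of the 9 genes past the test, and no gene of 16961 (0%). At an unadjusted p under 0.05 there were 1290 genes (7.61%) and none of the 9, and DESeq2's Wald test called 305 genes and none of the 9. The edgeR log2 fold changes were 1.32 for Snai1 (SE 0.99, adjusted p = 0.843), 0.88 for Snai2 (SE 1.64), 0.82 for Esrp1 (SE 1.27), 0.66 for Zeb2, 0.49 for Epcam, 0.34 for Cdh1, 0.26 for Twist1, 0.04 for Cdh2 and -0.52 for Vim (SE 0.60). The reference was a single library. The spread in this fit comes in part from the mesoderm days, which lay far apart for Cdh1, Epcam, Esrp1 and Snai2. A gene that did not pass is therefore not shown to be unchanged.

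Side by side, the 3 libraries of 2iJ+B-A were all above both 2i and 2iJ for Cdh1, Epcam, Esrp1, Snai1 and Snai2, as were 26.5% of all genes, and all below both for Vim, as were 17%. By these values epithelial genes and Snail genes lay on the same side of 2i and 2iJ, but some of the gaps were within counting error. The counting intervals of Snai1 overlapped between day 2 of 2iJ+B-A (2.55 to 3.97 CPM) and 2iJ (1.95 to 3.18). For Snai2 those of day 11 (1.21 to 2.11 CPM) and 2iJ (0.754 to 1.58) overlapped. For Vim those of day 11 (64.8 to 70.6 CPM) and 2iJ (66.9 to 73.4) did too. No gene of the 9 lists passed in this comparison. Of epithelial structural genes 25 of 29 were on the higher side of 2iJ (median 1.05, all genes 0.03), and the medians were 1.04 for epithelial regulators, 0.64 for other EMT factors, -0.03 for mesenchymal genes and -0.52 for gastrulation regulators. For cadherins and catenins, TGF-beta genes, splicing regulators and Snail and Zeb partners the medians lay between -0.02 and 0.42.

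**Figure D5:**
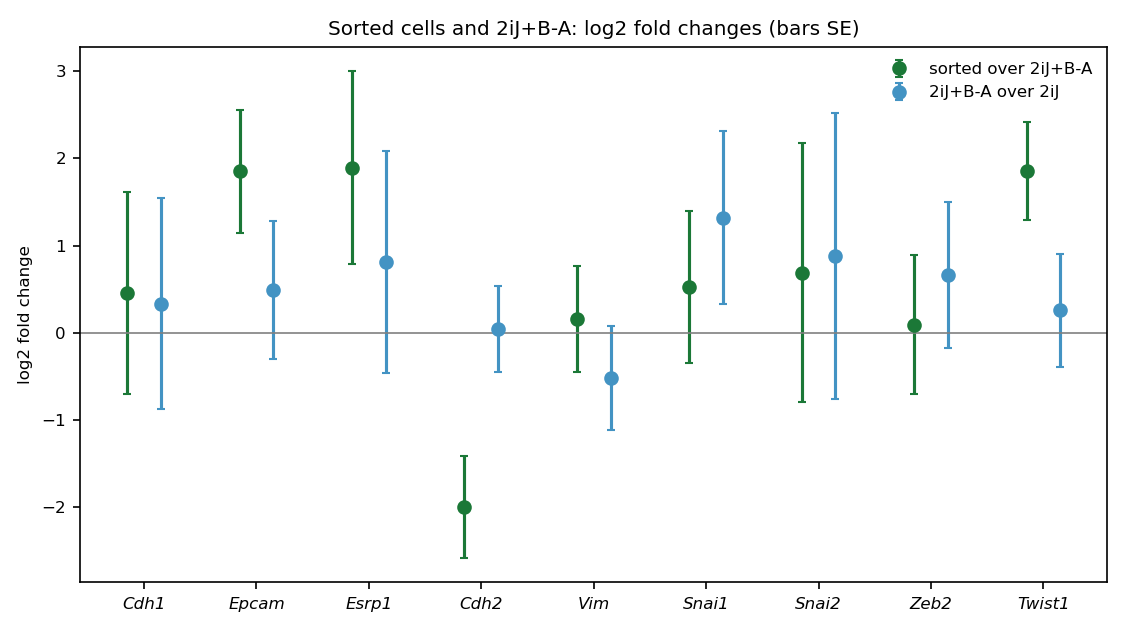
Log2 fold change of each gene in sorted cells over 2iJ+B-A (green) and in 2iJ+B-A over 2iJ (blue), with standard errors. No point passed an adjusted p of 0.05, and Cdh2 in the sorted cells, at -1.999, is the lowest.

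The JAK inhibitor alone was compared in 1 library each of 2iJ and 2i, with no test. Esrp1 was 3.08-fold higher in 2iJ and the 1 gene of the 9 that differed by 2-fold or more, where 4.95% of all genes were 2-fold or more higher and 2.24% lower, 7.19% in all. Epcam was 1.58-fold higher and Vim 1.44-fold lower. The log2 differences of the other 6 lay between 0.00 and 0.52, with Cdh1 at 0.07.

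Over the days of 2iJ+B-A no gene passed a slope on log2(day), 0 of 16961 with edgeR, where 1004 genes (5.92%) had an unadjusted p under 0.05. Among these were 2 of the 9 genes. Cdh2 had a log2 slope of 0.53 per doubling of days (SE 0.16, edgeR adjusted p = 0.829) and Zeb2 of 0.87 (SE 0.27, edgeR adjusted p = 0.829), and both had their lowest value on day 2 and their highest on day 11. Vim (0.54), Snai1 (0.57) and Twist1 (0.53) had positive slopes, and Cdh1, Epcam, Esrp1 and Snai2 lay between -0.23 and 0.09. Without day 2 the slopes were 0.20 for Cdh2, 0.21 for Vim, 0.078 for Snai1, -0.069 for Twist1 and 0.55 for Zeb2, and without day 11 Twist1 had 1.03 and Snai1 0.95. Snai2 moved from -0.23 to -0.46 without day 2 and to -0.064 without day 11. Without either mesoderm library the Vim slope stayed at 0.53, and whether it passes depends on the libraries that give the spread. The primitive endoderm markers summed to 293, 578 and 1437 CPM on days 2, 5 and 11 of 2iJ+B-A. Of these sums Sparc, also a mesenchymal structural gene, held 268, 532 and 1247 CPM. The other markers lay between 0.448 and 18.2 CPM on day 2 and between 10.3 and 72.8 CPM on day 11. The part of these markers in the slopes was not tested.

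Across the 8 libraries, which share groups and are no independent samples, the log2 CPM of these genes varied in a few patterns, given as descriptions with Pearson's r. Zeb2 and Twist1 went together most closely (r = 0.95), then Cdh2 with Zeb2, Snai1 with Twist1 and Vim with Zeb2 (each 0.90), Cdh2 with Vim (0.88) and Snai1 with Zeb2 (0.86). Cdh1 and Epcam had r = 0.85. Cdh1 was lowest where Snai2 (r = -0.82) and Vim (-0.81) were highest, in the day 4 mesoderm library, and much less so for Snai1 (-0.29). In that library log2 CPM was 4.82 for Cdh1 and 4.98 for Snai2. Outside it, Cdh1 (8.97 to 9.91) and Snai2 (-0.21 to 1.75) were both lowest in day 3 mesoderm and both highest in the sorted cells. The r of Cdh1 and Snai2 without day 4 is not given here. Esrp1 and Snai1, which are placed on opposite sides of the switch, had r = 0.55, with the day 3 mesoderm library highest for both.

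Among 11043 tested genes that reached 10 CPM in a library, those most like each member over the same 8 libraries were as follows. Cdh1 was closest to AA414768, H2afj and Grhl3 (r = 0.98 to 0.99), the last a grainyhead factor of epithelia. Epcam was closest to Arhgap8, Spint2 and 1110008P14Rik, and Spint2 is a membrane protease inhibitor of epithelia that was on the structural list. Esrp1 had the weakest neighbours, Stim1 (r = 0.96), Nol12 and Zfp593. Cdh2 was closest to Fam135a, Fancb and Lpar2, Vim to Gopc, Jak2 and Med12, and Zeb2 to Golim4, Chmp7 and 1200011I18Rik. Snai1 was closest to Wdr24, Itga8 and 6530418L21Rik, Snai2 to Rcsd1, Tbx2 and Magi3, and Twist1 to Fbxw5 and Lrp4 (r = 0.97 to 0.99). No other member was among the 3 genes nearest to any of them.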

How the data were processed

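Poly-A RNA libraries that keep strand were made and sequenced as read pairs by the authors, and per the submitters' processing notes cutadapt trimmed the reads and STAR 2.4.2a aligned them to NCBIM37. The authors deposited raw counts, in read pairs for each gene, and the annotation release behind them is not given in the sources used here. The reverse-strand column was read, to fit the library kit, and wrong-strand counts were 5.03% to 6.47%. Symbols and exon lengths came from GENCODE vM1 (NCBIM37), which named 37205 of 37620 genes. CPM are shares of a library's gene counts, with 95% Wilson intervals, and the floor was set at 3 counts. Intervals and floors cover counting error only, since pairs without molecular identifiers are not independent molecules.

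All 8 libraries entered 1 fit in edgeR 4.0.16 (R 4.3.3), with its quasi-likelihood test, with a coefficient for each of 5 groups, 3 residual degrees of freedom and TMM scaling (factors 0.966 to 1.04). A gene was tested if 2 or more libraries had 10 or more counts of it (16961 genes). P-values were adjusted over all of them (Benjamini-Hochberg, threshold 0.05), and standard errors are the log2 fold change over the square root of F. Change over days in 2iJ+B-A was fitted as a slope on log2(day). Comparisons of 1 library with 1 library were given as values of log2 CPM with a prior count of 2. DESeq2 1.42.0 and other alternatives are given at the end. The study adjusted its own expression values for experiments made on different days, and no such adjustment is in these counts. The code was tested on simulated data.

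Besides the 10 genes, up to 4 genes a list, comparison and direction were named, those with the largest fold change among genes with an adjusted p under 0.05 and a higher group that averaged 10 CPM or more, and for each gene the 3 most alike by Pearson's r. The lists were epithelial structure and regulators, cadherins and catenins, other EMT factors, mesenchymal structure, gastrulation EMT regulators, TGF-beta genes, splicing regulators and Snail and Zeb partners, with 8 lists of cell type markers. Some genes that this rule picks are counted but not reported here by name. Members and lists were chosen with earlier results of these data known.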

Additional observations from a re-analysis of the deposited data

Results flagged for a closer look

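Zeb2 was the 1 gene of the set whose share of counts on the opposite strand had a 95% Wilson interval wholly above the share over all genes of its library, in 3 libraries, a signal outside the counts used for the comparisons. On day 3 of the mesoderm progenitors 101 counts lay opposite to Zeb2 and 1028 on its strand, a share of 8.95% (95% Wilson interval 7.42% to 10.8%), against 6.4% over all genes of that library. On day 4 the share was 7.1% (154 against 2015 counts), with 5.62% over all genes. On day 11 of 2iJ+B-A it was 9.58% (16 against 151 counts), with 5.51% over all genes. Zeb2 overlaps the opposite-strand lincRNA Gm13476, and reads of the pair were not separated further. No group held enough libraries for a test of outlying samples.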

How the results depend on the processing

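Counts of the 9 genes past the threshold rested on few libraries. For mesoderm progenitors against 2iJ+B-A the count was 5, between 4 and 8 when 1 library of these groups was left out (2019 to 4538 genes of all) and 5 without the sorted library (4597 genes), and 9 with day 4 as its own group. For the sorted cells against 2iJ+B-A it was 0, and 0 to 2 when 1 library was left out (37 to 2052 genes), 2 with DESeq2's Wald test (2697 genes) and 2 in a fit of these groups alone (1911 genes), while 1390 genes passed without the filter on low counts and 27 when the comparison was made at day 2 of a slope on day. Sorted cells against mesoderm progenitors gave 1 to 7 when 1 library was left out (2763 to 5085 genes) and 6 with DESeq2 (5783 genes). For 2iJ+B-A against 2iJ it was 0 under every alternative run, with 0 genes under each left-out library, 305 genes by DESeq2, 3 against the mean of 2i and 2iJ and 150 with these merged. The slope gave 0 to 1 (0 to 469 genes), with 115 genes by DESeq2 and 2 without the filter. Cdh2, Vim, Zeb2 and Twist1 passed for mesoderm progenitors under all 13 alternatives.

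Signs turned as follows, and the cause was not tested. With 1 library left out, log2 fold changes in mesoderm progenitors over 2iJ+B-A ran from -1.91 (without day 3) to 2.08 for Esrp1 and from -1.35 (without day 4) to 3.98 for Snai2, and they were -1.95 for Esrp1 with day 4 alone and -1.40 for Snai2 with day 3 alone. In sorted cells over mesoderm progenitors they ran from -0.19 to 3.799 for Esrp1 and from -3.28 to 2.05 for Snai2, the turn being without day 4. In sorted cells over 2iJ+B-A they ran from -0.14 to 0.42 for Vim and from -0.30 to 0.61 for Zeb2, the turn being without day 2 of 2iJ+B-A, and at day 2 of the slope on day they were 0.93 and 1.42. For Cdh2 in 2iJ+B-A over 2iJ they ran from -0.22 (without day 11) to 0.33, and were -0.06 without day 5. Slopes ran from -0.17 to 0.29 for Cdh1, -0.21 to 0.038 for Epcam and -0.069 to 1.03 for Twist1, the turn being without day 2, and from -0.54 (without day 11) to 0.78 for Esrp1. Without length scaling the Cdh1 to Cdh2 ratio ran from 0.222 on day 4 of the mesoderm progenitors to 561 in the sorted cells. No paired analysis was possible because the labels give no replicate numbers that the groups share. Counting error was widest for genes with few counts, such as Twist1 with 12 on day 2 of 2iJ+B-A and Snai2 with 25 on day 3 of the mesoderm progenitors.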
